A study of Mus musculus with 18 samples.

Results

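Macrophages and other myeloid cells are the phagocytes of the innate immune system. They carry receptors for growth factors (Csf1r, Csf2rb), for microbial products (Cd14, Tlr2) and for dying cells (Mertk), depend on the ETS transcription factor PU.1 (encoded by Spi1), and make the C1q subunits that start the classical complement cascade. In lung tumors they are among the most common non-malignant cells. The set described here holds 44 genes of this kind, listed by name as myeloid and leukocyte genes, out of 46078 genes counted by RNA-seq. They were followed tumor by tumor in 9 RNA-seq libraries, together with the 41 ATAC-seq peaks, of 111664, that lay within 5000 bp of the start of any of them.

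All tumors were small cell lung cancers of mice with conditional (LoxP) alleles of Rb1, Trp53 and a further retinoblastoma family gene, which the labels give as Rbl1 and the study's Results as Rbl2 (TKO). The TKO tumors served as controls. TKO;Carm1 KO mice carried in addition a conditional allele of Carm1, an arginine methyltransferase, which is lost only in cells that received Cre (CARM1 knockout tumors). TKO;Nfib R388K mice carried a germline knock-in that replaces the arginine of the transcription factor NFIB that CARM1 methylates, so that every cell of these animals, leukocytes included, held it (NFIB mutant tumors). Adenovirus-Cre was given to the lungs of all mice at 8 weeks of age, and tumors were taken 28 weeks later from 3 animals per genotype. By the study's methods the cells were sorted for tdTomato, a reporter that Cre switches on, before either assay, whereas the Results name tumor biopsies. Each assay has 3 libraries per genotype. The study's Results state that both assays used the same biopsies, and the libraries of both carry the same letters and numbers. No label states that a numbered RNA-seq library and the ATAC-seq library of the same number came from the same tumor.

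RNA-seq libraries held 15848866 to 20915057 gene counts. Levels are given as CPM, counts per 1000000 after scaling by TMM, and 3 counts, which is 0.131 to 0.203 CPM, was taken as the limit of detection (counting error only). Carm1 itself was at 44.5 to 103 CPM in TKO and 50.8 to 79.1 CPM in CARM1 knockout libraries, but counts over the whole gene do not check a deletion of some exons. Nfib was at 420 to 580 CPM in TKO, 74.5 to 216 in CARM1 knockout and 83.3 to 105 in NFIB mutant libraries. Neuroendocrine genes of the tumor cells summed to 1482 to 2068 CPM in TKO, to 33.4 to 50.6 CPM in NFIB mutant libraries, and to 59.2, 189 and 1813 CPM in CARM1 knockout libraries 1, 2 and 3, so the third stood apart from its group. Fibroblast genes summed to 11.2 to 63.4 CPM in TKO and to 9479 to 25795 CPM in the 6 mutant libraries. Because these are bulk libraries, more cells of a type and more RNA per cell cannot be told apart.

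By the median gene, the myeloid genes were low in TKO, higher in all 3 CARM1 knockout libraries, and higher in 1 of the 3 NFIB mutant libraries. By their sum, NFIB mutant library 1 also exceeded CARM1 knockout library 2. Summed over the 44 genes, the level was 136, 28.2 and 26.9 CPM in TKO libraries 1, 2 and 3. It was 2223, 450 and 4840 CPM in CARM1 knockout libraries and 760, 2209 and 186 CPM in NFIB mutant libraries. The median gene was at 0.0443 to 1.44 CPM in TKO, at 25.3, 3.62 and 49.2 CPM in CARM1 knockout libraries, and at 0.182, 14.6 and 0.191 CPM in NFIB mutant libraries. CARM1 knockout library 3 was the highest of its group for 40 of the 44 genes and library 2 the lowest for 43. NFIB mutant library 2 was the highest of its group for 39 genes, the exceptions being Mertk, Cd74, H2-Aa, H2-Ab1 and Lyz2.

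**Figure D1:**
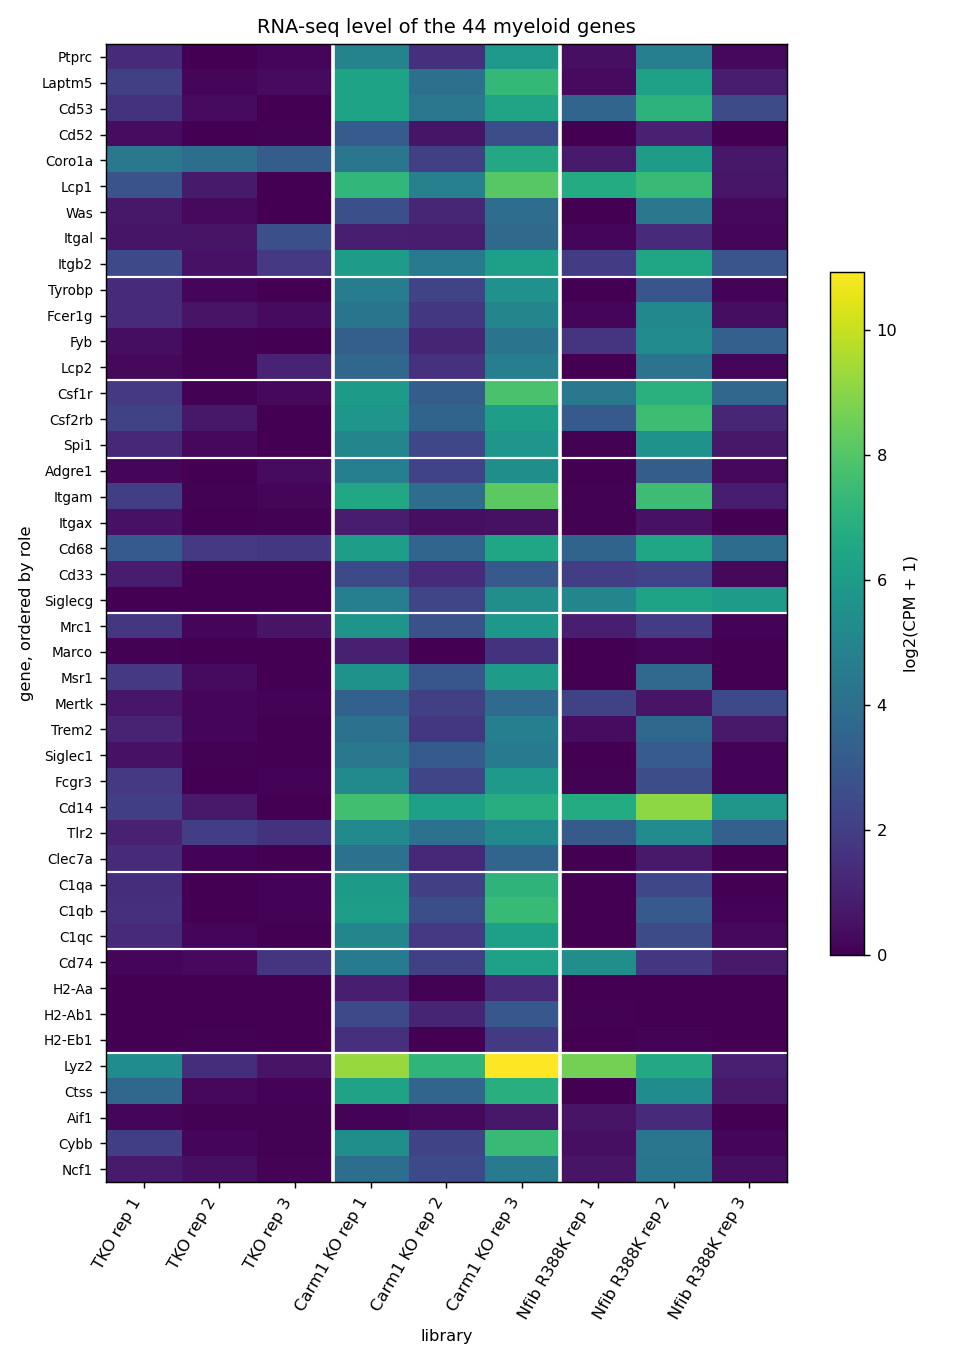
RNA-seq level of the 44 myeloid genes as log2(CPM + 1) (color), with genes in rows ordered by role (white lines part the roles) and the 9 libraries in columns. CARM1 knockout libraries 1 and 3 and NFIB mutant library 2 are bright for most genes, whereas NFIB mutant libraries 1 and 3 are bright only for some, such as Siglecg, Cd14 and Csf1r.

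A gene was called changed when its adjusted p was under 0.1 and its log2 fold change was 0.8 or more in size (edgeR's quasi-likelihood test, adjusted over all 15514 genes tested). The filter on low counts kept 39 of the 44, leaving out Itgax, Marco, H2-Aa, H2-Eb1 and Aif1. In CARM1 knockout tumors 28 of the 44 rose and 0 fell, beside 20.5% of all tested genes called higher and 18.3% called lower. In NFIB mutant tumors 12 rose and 0 fell, beside 22.3% of all tested genes called higher and 23.5% lower. With both mutants pooled against TKO, 21 rose and 0 fell, beside 22.3% higher and 24.7% lower. All 3 CARM1 knockout libraries lay above all TKO libraries for 35 of the 39 tested genes, beside 27.3% of all tested genes. For NFIB mutant libraries this held for 7 of the 39, beside 27.2%. The same 7, Cd53, Fyb, Csf1r, Cd68, Siglecg, Cd14 and Tlr2, were above TKO in all 6 mutant libraries, as were 22.3% of all tested genes. Only 7 of the 44 members had over 3 counts in all 3 TKO libraries. Most tested members therefore passed the filter through mutant libraries, and a fall could hardly be called for them. The shares over all genes include genes well expressed in TKO, so they are not a like yardstick for these counts.

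The CARM1 knockout count rests on few libraries. It was 9 without TKO library 2, 14 without TKO library 3, 12 without CARM1 knockout library 1 and 15 without CARM1 knockout library 3. The NFIB mutant count was 5 without NFIB mutant library 2 and 6 without TKO library 2. Fyb, Csf1r, Siglecg, Mrc1, Mertk, Cd14, Tlr2 and H2-Ab1 kept the CARM1 knockout call whichever library was left out, and Fyb, Siglecg, Cd14 and Tlr2 kept the NFIB mutant call. The members spread widely within a genotype: the median SD of log2 CPM over the tested members was 1.82 for TKO, 1.83 for CARM1 knockout and 2.98 for NFIB mutant libraries, against 0.42, 0.34 and 0.36 over all tested genes.

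Among genes expressed by leukocytes of every kind, Ptprc, which encodes the phosphatase CD45, was at 1.49, 0 and 0.133 CPM in TKO, at 29.2, 1.87 and 57.7 CPM in CARM1 knockout and at 0.365, 25.8 and 0.191 CPM in NFIB mutant libraries. NFIB mutant libraries 1 and 3 thus lay within the TKO range. The rise in CARM1 knockout tumors was 5.77 on the log2 scale (SE 2.42, adjusted p = 0.0971), and the NFIB mutant difference of 4.01 (SE 2.25) was not called (adjusted p = 0.177). Laptm5, a lysosomal membrane protein of blood cells, was likewise high in all CARM1 knockout libraries and in NFIB mutant library 2, with 80.2, 15.6 and 158 CPM in CARM1 knockout against 0.243, 75.5 and 0.826 CPM in NFIB mutant libraries. The tetraspanin gene Cd53 differed from them in that no NFIB mutant library reached down to TKO. It was at 0 to 2.07 CPM in TKO, at 19.4 to 84.1 CPM in CARM1 knockout and at 10.9, 135 and 4.70 CPM in NFIB mutant libraries, a rise of 6.31 (SE 1.86, adjusted p = 0.0332) and 6.01 (SE 1.84, adjusted p = 0.0321). Lcp1, the actin bundler L-plastin, rose in both (6.07, adjusted p = 0.0603, and 5.35, adjusted p = 0.0694), but was at 104 and 166 CPM in NFIB mutant libraries 1 and 2 and at 0.572 CPM in library 3. The beta-2 integrin chain gene Itgb2 was called in both as well, with 2.796, 87.3 and 6.29 CPM in NFIB mutant and 0.437 to 4.32 CPM in TKO libraries. Cd52 rose in CARM1 knockout tumors only as far as 0.525 to 8.07 CPM. Coro1a (coronin-1A), Was (the actin regulator mutated in Wiskott-Aldrich syndrome) and Itgal (the alpha chain of the integrin LFA-1) were not called in either mutant, and Coro1a was already at 8.42 to 19.7 CPM in TKO. Reads of Coro1a may be shared with Bola2 on the opposite strand, which reached 1083 counts in a library. For Coro1a the NFIB mutant difference of 0.59 turned to -4.36 (adjusted p = 0.0584) without library 2.

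The adaptors couple immune receptors to kinases. Tyrobp (DAP12) was at 24.2, 3.67 and 45.6 CPM in CARM1 knockout and at 0, 6.41 and 0.0635 CPM in NFIB mutant libraries, and neither difference was called (adjusted p = 0.103 and 0.446). Fcer1g, the common Fc receptor gamma chain, and Lcp2 (SLP-76) were likewise high in CARM1 knockout libraries 1 and 3 and in NFIB mutant library 2 without a call. Fyb, the adaptor ADAP, was the exception. It was at 0.336, 0.0437 and 0 CPM in TKO, at 8.81, 1.23 and 17.3 CPM in CARM1 knockout and at 2.25, 37.4 and 9.15 CPM in NFIB mutant libraries. It rose by 6.11 (SE 1.70, adjusted p = 0.0276) and by 6.95 (SE 1.76, adjusted p = 0.0165).

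The receptor for the macrophage growth factors CSF1 and IL-34, Csf1r, was at 2.55, 0.0437 and 0.177 CPM in TKO. It was at 60.8, 8.34 and 223 CPM in CARM1 knockout libraries and at 20.1, 122 and 11.1 CPM in NFIB mutant libraries, so that the groups did not overlap (log2 fold change 6.73, SE 1.90, adjusted p = 0.0288, and 5.79, SE 1.82, adjusted p = 0.0356). Csf1r overlaps Hmgxb3 on the opposite strand, which reached 1576 counts in a library. Csf2rb, the shared signalling chain of the GM-CSF, IL-3 and IL-5 receptors, was at 52.9, 10.4 and 66.9 CPM in CARM1 knockout and at 7.66, 186 and 1.27 CPM in NFIB mutant libraries, and was called in both. Its close copy Csf2rb2 lies beside it, so the split of reads between them is uncertain. Spi1 was at 31.6, 4.02 and 52.9 CPM in CARM1 knockout libraries and at 0.0608, 47.3 and 0.635 CPM in NFIB mutant libraries, against 0 to 1.39 CPM in TKO. It was called in the former (5.81, SE 2.46, adjusted p = 0.0992) and not in the latter (4.93, SE 2.37, adjusted p = 0.124).

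Of the ligands of these receptors, Csf1 was at 6.08 to 21.4 CPM in TKO and at 117 to 586 CPM in all 6 mutant libraries, and rose by 4.07 (SE 0.73, adjusted p = 0.00557) and 4.43 (SE 0.74, adjusted p = 0.00339). Il34 rose by 5.69 (SE 1.07, adjusted p = 0.00664) and 5.64 (SE 1.07, adjusted p = 0.00538), from at most 0.355 CPM to between 2.71 and 25.6 CPM. Csf2 reached at most 0.678 CPM, Il5 at most 0.0617 CPM, and Il3 had no count in any library, where 3 counts would be 0.131 to 0.203 CPM. Both Csf1 and Il34 were above TKO in NFIB mutant libraries 1 and 3, where Ptprc, Tyrobp and Spi1 were near 0.

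Surface markers used to define macrophages and dendritic cells split in the same manner. Adgre1, which encodes the mouse macrophage antigen F4/80, was at 25.1, 3.56 and 43.0 CPM in CARM1 knockout and at 0, 8.32 and 0.191 CPM in NFIB mutant libraries. It rose in CARM1 knockout tumors (7.38, SE 2.34, adjusted p = 0.0419). Itgam (CD11b) was at 92.3, 13.9 and 293 CPM in CARM1 knockout and at 0.0608, 186 and 0.826 CPM in NFIB mutant libraries. It rose in CARM1 knockout tumors as well (6.92, SE 2.84, adjusted p = 0.0908). Cd68, a lysosomal glycoprotein, was at 2.44 to 7.45 CPM in TKO and at 10.6 to 87.7 CPM in the mutants, and rose in both (3.74, SE 1.12, adjusted p = 0.0348, and 3.17, SE 1.09, adjusted p = 0.0473). Cd33 was at most 7.30 CPM in a library and was not called. Itgax (CD11c), carried by dendritic cells and alveolar macrophages, stayed at or below 0.814 CPM in every library.

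Siglecg, an inhibitory sialic acid receptor best known from B cells, was, with H2-Ab1, 1 of 2 tested members without a single count in the 3 TKO libraries. It was at 25.4, 3.91 and 41.4 CPM in CARM1 knockout libraries and at 31.3, 79.8 and 63.1 CPM in NFIB mutant libraries, and NFIB mutant libraries 1 and 3 did not drop as they did for most members. Against 3 counts in each TKO library the means were at least 173-fold and 427-fold higher (adjusted p = 0.00392 and 0.00232). Siglecg passed the filter on low counts only through mutant libraries, so these p-values are given as a description. Genes of B and plasma cells summed to 0.117 to 1.15 CPM in CARM1 knockout and 0.123 to 4.45 CPM in NFIB mutant libraries, and Ms4a1 and Blk had no count in any library. In TKO the same genes summed to 3.70 to 48.1 CPM, nearly all of it Pax5 in libraries 2 and 3. Their part in the Siglecg result was not tested.

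**Figure D2:**
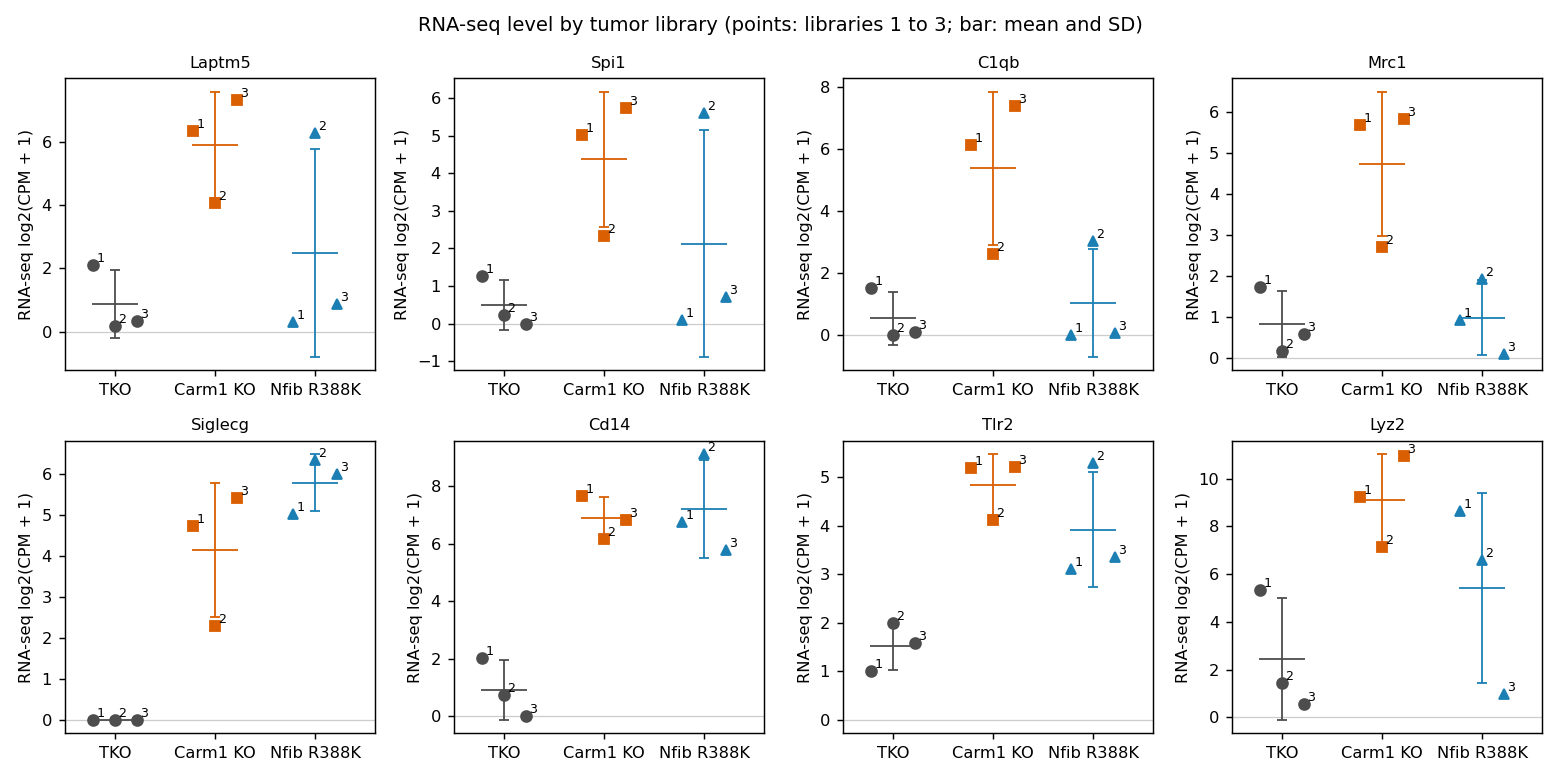
RNA-seq level of 8 of the myeloid genes as log2(CPM + 1), with 1 point per library (numbers are the library numbers) and a bar for the mean and SD of each genotype on that scale. Laptm5, Spi1, C1qb and Mrc1 fall to the TKO range in NFIB mutant libraries 1 and 3, whereas Siglecg, Cd14 and Tlr2 stay above TKO in all 6 mutant libraries.

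Receptors for particles and microbial products fell into the same classes. The mannose receptor gene Mrc1 was at 0.131 to 2.31 CPM in TKO, at 50.3, 5.48 and 55.7 CPM in CARM1 knockout libraries and at 0.912, 2.77 and 0.0635 CPM in NFIB mutant libraries. It rose in CARM1 knockout tumors (5.25, SE 1.57, adjusted p = 0.0346), and its NFIB mutant difference was 0.36 (SE 1.35, adjusted p = 0.843). Siglec1, the sialoadhesin of tissue macrophages, and Trem2, a lipid receptor of macrophages, were called in CARM1 knockout tumors. The scavenger receptor Msr1, the Fc receptor Fcgr3 and the beta-glucan receptor Clec7a (Dectin-1) were high in the same libraries without a call, at 6.65 to 62.3, 3.85 to 59.5 and 1.40 to 15.8 CPM. In NFIB mutant library 2 they were at 12.5, 4.99 and 0.678 CPM. Fcgr3 has near copies in the same gene cluster, so its counts are uncertain. Marco, a scavenger receptor of alveolar macrophages, reached 2.08 CPM at most. Mertk, which binds dying cells through Gas6 and protein S, was at 9.63, 3.15 and 13.3 CPM in CARM1 knockout libraries. In NFIB mutant libraries Mertk was at 3.34, 0.493 and 4.32 CPM, lowest in the library where most members were highest, and it was called in both mutants (5.01, SE 1.15, adjusted p = 0.0137, and 3.33, SE 1.07, adjusted p = 0.0376).

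Cd14, the co-receptor for lipopolysaccharide, was at 3.12, 0.656 and 0 CPM in TKO, at 199, 70.6 and 113 CPM in CARM1 knockout libraries and at 107, 549 and 54.3 CPM in NFIB mutant libraries. The lowest mutant library was above the highest TKO library, and the rises were 6.67 (SE 1.53, adjusted p = 0.014) and 7.56 (SE 1.58, adjusted p = 0.00816). Tlr2, the receptor for bacterial lipoproteins, was at 1.01 to 2.97 CPM in TKO, at 16.3 to 36.0 CPM in CARM1 knockout and at 7.66, 38.0 and 9.21 CPM in NFIB mutant libraries (3.87, SE 0.78, adjusted p = 0.00869, and 3.19, SE 0.76, adjusted p = 0.0128). Its highest mutant library was 4.97 times its lowest. For Laptm5 that ratio was 648, but its lowest value, in NFIB mutant library 1, rested on 4 counts, near the limit of detection. Tlr2 had 126 counts in that library.

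The C1q genes moved as a block. C1qa, C1qb and C1qc together were at 5.05, 0.131 and 0.177 CPM in TKO. They were at 162, 10.96 and 377 CPM in CARM1 knockout libraries and at 0, 16.1 and 0.254 CPM in NFIB mutant libraries. All rose in CARM1 knockout tumors, by 6.80 (SE 2.51, adjusted p = 0.0682), 6.95 (SE 2.53, adjusted p = 0.0651) and 6.05 (SE 2.33, adjusted p = 0.0766), and none was called in NFIB mutant tumors. The proteases that act with C1q, C1ra and C1s1, did not follow them. C1ra was at 28.1 to 127 CPM and C1s1 at 44.7 to 246 CPM in all 6 mutant libraries, and both rose in each mutant.

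The MHC class II genes, which present antigen to T cells, were low. H2-Ab1 had no count in TKO, was at 4.34, 1.17 and 6.74 CPM in CARM1 knockout libraries, and had 0.0608, 0 and 0 CPM in NFIB mutant libraries. Against 3 counts per TKO library its CARM1 knockout mean was at least 30.0-fold higher (adjusted p = 0.00645). H2-Ab1 passed the filter on low counts only through the CARM1 knockout libraries, where it was high, so this p-value is given as a description. H2-Aa and H2-Eb1 reached 1.52 and 2.64 CPM, both in CARM1 knockout library 3. Cd74, the invariant chain, was at 21.5, 3.21 and 75.3 CPM in CARM1 knockout libraries. In NFIB mutant libraries it was at 41.8, 2.47 and 0.699 CPM, highest in library 1, where H2-Ab1 had 1 count. Lyz2 (lysozyme M) had a like order there, at 404, 96.2 and 0.953 CPM, and was at 607, 141 and 1967 CPM in CARM1 knockout libraries and 39.5, 1.71 and 0.487 CPM in TKO. It rose in CARM1 knockout tumors (6.03, SE 2.36, adjusted p = 0.0798). NFIB mutant library 1 also held 1737 CPM of the surfactant gene Sftpb and 126 CPM of Sftpc, and alveolar type 2 cells express both Lyz2 and Cd74. Sftpc was also at 58.9 CPM in CARM1 knockout library 3, with Sftpb at 2.53 CPM, and at 8.89 CPM in TKO library 1. CARM1 knockout library 3 and TKO library 1 were each the highest of their group for Lyz2. They were also the highest of their group for most members, 40 and 38 of the 44. The match of Sftpc with Lyz2 in these libraries is therefore not particular to Lyz2. CARM1 knockout libraries 1 and 2 had no count of Sftpc. The part of alveolar type 2 cells in the Lyz2 and Cd74 values was not tested in any library.

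Of the remaining enzymes, Cybb, the membrane subunit of the phagocyte oxidase, and Ncf1, a cytosolic subunit, rose in CARM1 knockout tumors, to 42.8, 3.79 and 167 CPM and to 14.3, 4.26 and 21.4 CPM. Ncf1 was also called in NFIB mutant tumors, with 17.8 CPM in library 2 and at most 0.486 CPM in the others. Ncf1 overlaps Gtf2ird2 on the other strand. The lysosomal protease gene Ctss was at 77.3, 10.8 and 118 CPM in CARM1 knockout libraries and was not called (adjusted p = 0.215), with 11.7 CPM in TKO library 1. Aif1 (IBA1), commonly used to stain macrophages, stayed at or below 1.48 CPM everywhere.

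Per kilobase of merged exons, Lyz2 was the most abundant member in CARM1 knockout tumors, with a mean of 688 CPM per kb, before C1qb with 74.2 and Cd14 with 73.7 CPM per kb. In NFIB mutant tumors Cd14 had 137 and Lyz2 127 CPM per kb, and C1qb 2.27 CPM per kb. The SDs of Lyz2 and Cd14 in NFIB mutant libraries, 211 and 272 CPM, exceeded their means of 167 and 237 CPM, so the order of these 2 is not set beyond their spread. In CARM1 knockout libraries the SDs of Lyz2 and C1qb, 949 and 82.1 CPM, also exceeded their means of 905 and 80.8 CPM. Cd14 was above C1qb in libraries 1 and 2 (199 against 69.0 and 70.6 against 5.19 CPM) and below it in library 3 (113 against 168 CPM). Their order there is not set either.

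CARM1 knockout libraries and NFIB mutant library 2 differed in the level of some members relative to Spi1. The summed level of the latter, 2209 CPM, lay within the CARM1 knockout range of 450 to 4840 CPM. That range is too wide to show whether the amount differed. Set against Spi1 of the same library, the summed C1q level was 5.12, 2.72 and 7.14 times that of Spi1 in CARM1 knockout libraries 1, 2 and 3 and 0.340 times in NFIB mutant library 2. For Mrc1 these ratios were 1.59, 1.36 and 1.05 against 0.0587, for Fcgr3 1.16, 0.957 and 1.13 against 0.106, and for Tyrobp 0.766, 0.913 and 0.863 against 0.136. Other members kept or exceeded their ratio, with Itgam at 2.92, 3.45 and 5.53 against 3.94, Csf2rb at 1.67, 2.58 and 1.26 against 3.94, and Siglecg at 0.805, 0.971 and 0.782 against 1.69. Cd14 varied widely within CARM1 knockout libraries, at 6.31, 17.6 and 2.14, against 11.6. These are some of the members compared in this way. The comparison sets 3 libraries against 1 and carries no test.

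Compared directly, CARM1 knockout and NFIB mutant tumors differed in 0 of the 39 tested members by edgeR's test, as in 0% of all tested genes. At an unadjusted p under 0.05 there were 4, beside 9.11% of all tested genes, namely H2-Ab1 (7.22 higher in CARM1 knockout on the log2 scale, SE 1.29, adjusted p = 0.451), Mrc1 (4.88, SE 1.54, adjusted p = 0.516), Clec7a (5.32, SE 2.16, adjusted p = 0.534) and C1qa (5.65, SE 2.37, adjusted p = 0.542). DESeq2 called 2 of them, H2-Ab1 (adjusted p = 0.000612) and Mrc1 (adjusted p = 0.0135). H2-Ab1 passed the filter of edgeR's test only through the CARM1 knockout libraries. So a call in CARM1 knockout tumors without one in NFIB mutant tumors is not by itself a difference between the mutants.

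A further 64 genes of myeloid pathways, 63 of them in the count table, were taken. Not all were particular to myeloid cells. In NFIB mutant libraries 1 and 3, Csf1 was at 117 and 586, C3 at 217 and 365 and C1s1 at 90.7 and 73.9 CPM. Ptprc, Tyrobp and Spi1 were near 0 there, and others of the list, such as Mpeg1, were low. Which cells made them was not tested, so the counts below are not counts of myeloid cell genes alone. In CARM1 knockout tumors 34 rose and 0 fell, beside the 20.5% and 18.3% of all tested genes called higher and lower. In NFIB mutant tumors 25 rose and 1, Gas6, fell, beside 22.3% and 23.5%. Only 16 of the 63 had a mean of at least 1 CPM in TKO, so a fall could hardly be called for most of them. Gas6 was at 2.40, 1.09 and 98.9 CPM in TKO and at 0.608 to 1.42 CPM in NFIB mutant libraries, and its log2 fold change of -5.01 (adjusted p = 0.0714) was -0.69 (adjusted p = 0.677) without TKO library 3. The call was also lost without any 1 of the NFIB mutant libraries (adjusted p = 0.165, 0.15 and 0.161). Of 15 kinases and adaptors that act below the receptors, 8 rose with CARM1 loss and 7 in the NFIB mutant. Of 10 transcription factors 4 rose in each mutant, with Cebpb the most abundant at 19.3 to 49.5 CPM in TKO and 117 to 394 CPM in the mutants. Of 12 oxidase, complement and class II partners 9 rose in each, led by C3. Of 20 further surface genes, 19 of them in the count table, 10 rose with CARM1 loss and 2 in the NFIB mutant. Mpeg1, a pore-forming protein of macrophages and the most abundant of these, was at 200, 21.8 and 158 CPM in CARM1 knockout libraries and at 2.92, 58.8 and 0.762 CPM in NFIB mutant libraries.

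Genes of T and NK cells summed to 1.02 to 7.81 CPM over all 9 libraries, with Cd3d, Cd3e, Cd3g and Gzma at 0 counts in each. Of 8 neutrophil genes S100a9 was at 0 in every library, and S100a8 was at 61.5 CPM in NFIB mutant library 2 and at most 6.63 CPM elsewhere. Mast cell genes reached 0.243 CPM in sum. The 7 alveolar macrophage genes summed to 1.59 to 2.06 CPM in TKO and 13.8 to 32.2 CPM in the mutants. The 3 of them that were tested, Siglecf, Pparg and Fabp4, rose in both mutants, whereas Car4 reached 1.53 CPM in TKO and had no count in the mutants, Krt79 was at 16.6 CPM in NFIB mutant library 1, Chil3 was at 6.12 CPM in CARM1 knockout library 2 and Ear2 reached 0.175 CPM. The 7 dendritic cell genes summed to 20.2 to 30.1 CPM in TKO and 1.97 to 7.34 CPM in the mutants. In TKO nearly all of this was Zbtb46, which fell in both mutants (-3.74, adjusted p = 0.00206, and -2.74, adjusted p = 0.0041), while Cd209a and Siglech had no count in any library. The part of these other cells in the results was not tested.

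ATAC-seq counts reads where a transposase could reach the DNA, and its libraries held 26917178 to 47653979 counts on peaks. Only 28 of the 44 members (63.6%) had a peak within 5000 bp of the gene start, and 25 of the 39 tested members (64.1%) did, against 94% of all tested genes and 95.1% of those called higher in CARM1 knockout tumors. The 16 without one were Cd52, Was, Itgal, Tyrobp, Fyb, Lcp2, Adgre1, Itgam, Itgax, Mrc1, Marco, Msr1, Siglec1, Clec7a, Lyz2 and Cybb. They include Lyz2 and Itgam, among the most abundant members in CARM1 knockout RNA. Peaks came as a single list for all libraries, and regions of putative copy-number change had been left out of it by the study's methods. Nothing is said here of accessibility where no peak was listed.

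Near the other 28 genes there were 41 peaks, 2 of which lay near 2 C1q genes each. For peaks the limits were an adjusted p under 0.1 and a log2 fold change of 0.5 or more in size. In CARM1 knockout tumors 21 of the 41 rose and 4 fell, beside 38.7% of all tested peaks called higher and 32.4% lower. In NFIB mutant tumors 21 rose and 5 fell, beside 39.3% higher and 34% lower. With both mutants together it was 21 and 5, beside 41% and 34.9%. All 3 libraries lay above all TKO libraries for 21 peaks in CARM1 knockout tumors, beside 38.2% of all peaks, and for 20 in NFIB mutant tumors, beside 37.6%. They lay below for 4 and 5, beside 31.5% and 32.9%. All 6 mutant libraries were above TKO for 16 peaks and below for 4, beside 33.1% and 28.6%. Within 1000 bp of the start there were 21 peaks, of which 11 rose and 1 fell with CARM1 loss, and 12 rose and 2 fell in the NFIB mutant. The share called among all peaks this close to a gene start is not reported here. These counts therefore cannot show whether peaks at members differed from those at other genes.

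**Figure D3:**
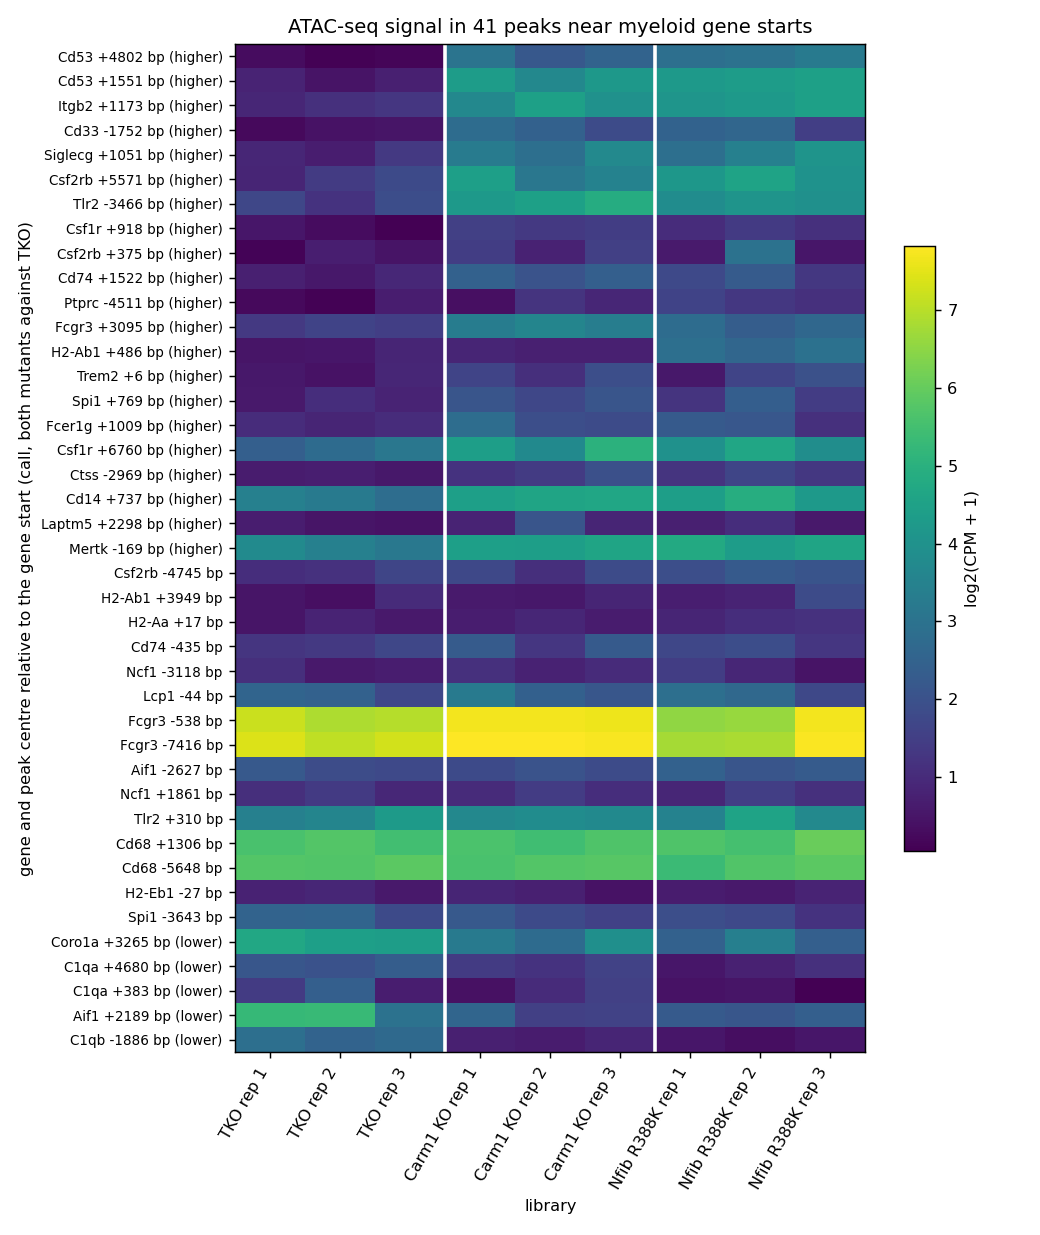
ATAC-seq signal of the 41 peaks near myeloid gene starts as log2(CPM + 1) (color), ordered by the log2 fold change of both mutants together against TKO, with the distance of the peak centre from the gene start and the call beside the gene name. Peaks at Cd53, Itgb2, Siglecg and Tlr2 are brighter in all 6 mutant libraries, and the C1qb peak and 1 of the 2 Aif1 peaks are darker.

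The peaks that the chromatin results turn on are shown here as the 300 bases at their centre, on the plus strand of GRCm38 (RefSeq GRCm38.p6 sequence). Capitals mark GAGGAA, the core letters of PU.1 sites, on either strand, and TGANTCA, the AP-1 motif. The first 4 rose in both mutants, the fifth fell in both, and the sixth rose in NFIB mutant tumors alone among the calls. The window at Siglecg overlaps exons by 166 bases, and the other 5 windows overlap none.
Cd53, chr3:106788449-106788748: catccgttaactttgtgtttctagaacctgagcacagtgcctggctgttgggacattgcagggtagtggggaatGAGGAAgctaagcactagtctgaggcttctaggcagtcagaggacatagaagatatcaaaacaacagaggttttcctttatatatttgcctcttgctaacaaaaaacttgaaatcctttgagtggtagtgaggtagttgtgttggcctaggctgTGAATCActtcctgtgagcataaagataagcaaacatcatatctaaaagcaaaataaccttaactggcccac
Itgb2, chr10:77531276-77531575: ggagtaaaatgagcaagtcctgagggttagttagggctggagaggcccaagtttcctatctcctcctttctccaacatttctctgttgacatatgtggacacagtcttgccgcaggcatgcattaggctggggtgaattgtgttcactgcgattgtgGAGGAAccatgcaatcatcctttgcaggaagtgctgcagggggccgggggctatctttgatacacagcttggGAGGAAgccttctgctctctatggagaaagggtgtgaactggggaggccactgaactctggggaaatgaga
Siglecg, chr7:43409106-43409405: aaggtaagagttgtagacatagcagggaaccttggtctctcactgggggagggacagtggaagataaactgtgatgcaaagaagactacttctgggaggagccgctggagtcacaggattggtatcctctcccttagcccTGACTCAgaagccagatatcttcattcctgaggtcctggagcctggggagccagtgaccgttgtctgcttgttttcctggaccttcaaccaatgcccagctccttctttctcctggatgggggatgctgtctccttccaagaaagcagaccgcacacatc
Tlr2, chr3:83845084-83845383: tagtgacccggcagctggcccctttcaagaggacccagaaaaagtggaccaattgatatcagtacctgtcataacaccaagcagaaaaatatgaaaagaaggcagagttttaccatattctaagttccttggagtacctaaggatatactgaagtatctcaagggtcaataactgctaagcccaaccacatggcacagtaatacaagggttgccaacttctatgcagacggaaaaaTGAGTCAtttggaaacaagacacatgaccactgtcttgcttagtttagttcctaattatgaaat
C1qb, chr4:136887924-136888223: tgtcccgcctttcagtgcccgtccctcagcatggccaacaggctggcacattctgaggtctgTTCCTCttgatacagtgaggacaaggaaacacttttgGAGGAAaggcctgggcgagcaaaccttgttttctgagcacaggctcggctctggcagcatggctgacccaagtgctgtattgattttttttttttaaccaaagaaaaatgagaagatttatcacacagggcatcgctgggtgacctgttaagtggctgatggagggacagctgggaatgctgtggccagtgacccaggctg
H2-Ab1, chr17:34258026-34258325: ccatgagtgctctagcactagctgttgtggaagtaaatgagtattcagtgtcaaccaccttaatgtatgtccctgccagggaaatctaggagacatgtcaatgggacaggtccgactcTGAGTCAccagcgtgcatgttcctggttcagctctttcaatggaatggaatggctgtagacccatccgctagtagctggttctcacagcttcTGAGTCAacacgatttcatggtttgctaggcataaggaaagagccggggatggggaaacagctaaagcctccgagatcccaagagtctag

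Over such windows of all 111664 peaks, GAGGAA was found in 27.2% and TGANTCA in 23.7%. In the 21 member peaks called higher in both mutants together it was 8 (38.1%) for each, and in all 41 it was 11 (26.8%) and 9 (22%). The other motifs searched on both strands were the RUNX letters TGTGGT, in 24.2% of all peaks and 7 of the 21, the CEBP letters TTGCNNAA, in 14.4% and 4, and the single NFI site TTGGC, in 50.6% and 6. The full NFI palindrome, which holds that site in each direction, was in 0.1% of all peaks and in none of the 41. These shares are descriptions of 21 windows and carry no test.

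Of the 7 genes whose RNA was above TKO in all 6 mutant libraries, Cd53, Csf1r, Siglecg, Cd14 and Tlr2 had a peak that rose in both mutants, Cd68 had no peak called and Fyb had no peak nearby. The Cd53 peak centred 1551 bp after the start (chr3:106787740-106789457) was at 0.765, 0.371 and 0.676 CPM in TKO, at 19.6, 11.8 and 17.3 CPM in CARM1 knockout libraries and at 18.1, 19.4 and 21.4 CPM in NFIB mutant libraries. It rose by 4.75 (adjusted p = 1.29e-05) and 5.02 (adjusted p = 8.99e-06). The RNA of Cd53 in NFIB mutant libraries ranged from 4.70 to 135 CPM, whereas no NFIB mutant ATAC-seq library was low. The Siglecg peak 1051 bp after the start (chr7:43408511-43410000) was at 0.587 to 1.56 CPM in TKO and at 6.47 to 15.8 CPM in the mutants, and rose by 3.19 (adjusted p = 0.000494) and 3.43 (adjusted p = 0.00031). The Tlr2 peak 3466 bp before the start rose from 1.27 to 2.70 CPM to between 13.2 and 28.1 CPM, while the peak over the Tlr2 start, at 9.75 to 18.6 CPM in TKO, did not change by the test (-0.06, adjusted p = 0.892, and 0.19, adjusted p = 0.628). Peaks of Csf1r, Cd14 and Mertk rose in both mutants, the last 2 from 6.08 to 9.98 CPM and 7.90 to 12.6 CPM to at least 18.3 and 19.3 CPM. The 2 peaks at Cd68, 1 near the start of Mpdu1 and 1 near that of Eif4a1, held 39.6 to 65.3 CPM in every library and were not called.

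Peaks of several genes whose RNA in NFIB mutant libraries 1 or 3 lay within the TKO range rose there too. The Itgb2 peak (chr10:77530516-77532334) was at 0.861 to 1.44 CPM in TKO, at 11.8, 21.2 and 14.9 CPM in CARM1 knockout libraries and at 16.1, 18.2 and 21.1 CPM in NFIB mutant libraries, a rise of 3.77 and 3.99 (adjusted p = 2.64e-05 and 1.89e-05). The Spi1 peak 769 bp after the start (chr2:91082736-91083583) was at 0.510 to 1.08 CPM in TKO, at 3.33, 2.25 and 3.27 CPM in CARM1 knockout libraries and at 1.35, 4.16 and 1.73 CPM in NFIB mutant libraries, highest in library 2, and rose by 1.90 (adjusted p = 0.0108) and 1.62 (adjusted p = 0.0215). The other Spi1 peak was not called. The Csf2rb peak over the first part of the gene, centred 375 bp after the start, was at 0.538, 6.93 and 0.432 CPM in NFIB mutant libraries, high in library 2 alone, whereas the Csf2rb peak at 5571 bp was at 15.3 to 22.8 CPM in all of them. Cd33, Fcer1g, Ctss and Cd74 had peaks that rose in both mutants. The Fcgr3 peaks 538 and 7416 bp before the start held 92.6 to 227 CPM in all 9 libraries, more than any other member peak. They rose in CARM1 knockout tumors (0.65, adjusted p = 0.0413, and 0.53, adjusted p = 0.0644) and were not called in NFIB mutant tumors. The weaker Fcgr3 peak 3095 bp after the start was at 1.56 to 2.10 CPM in TKO and 4.04 to 11.2 CPM in the mutants, and rose in both (2.42, adjusted p = 0.000322, and 1.48, adjusted p = 0.00352).

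**Figure D4:**
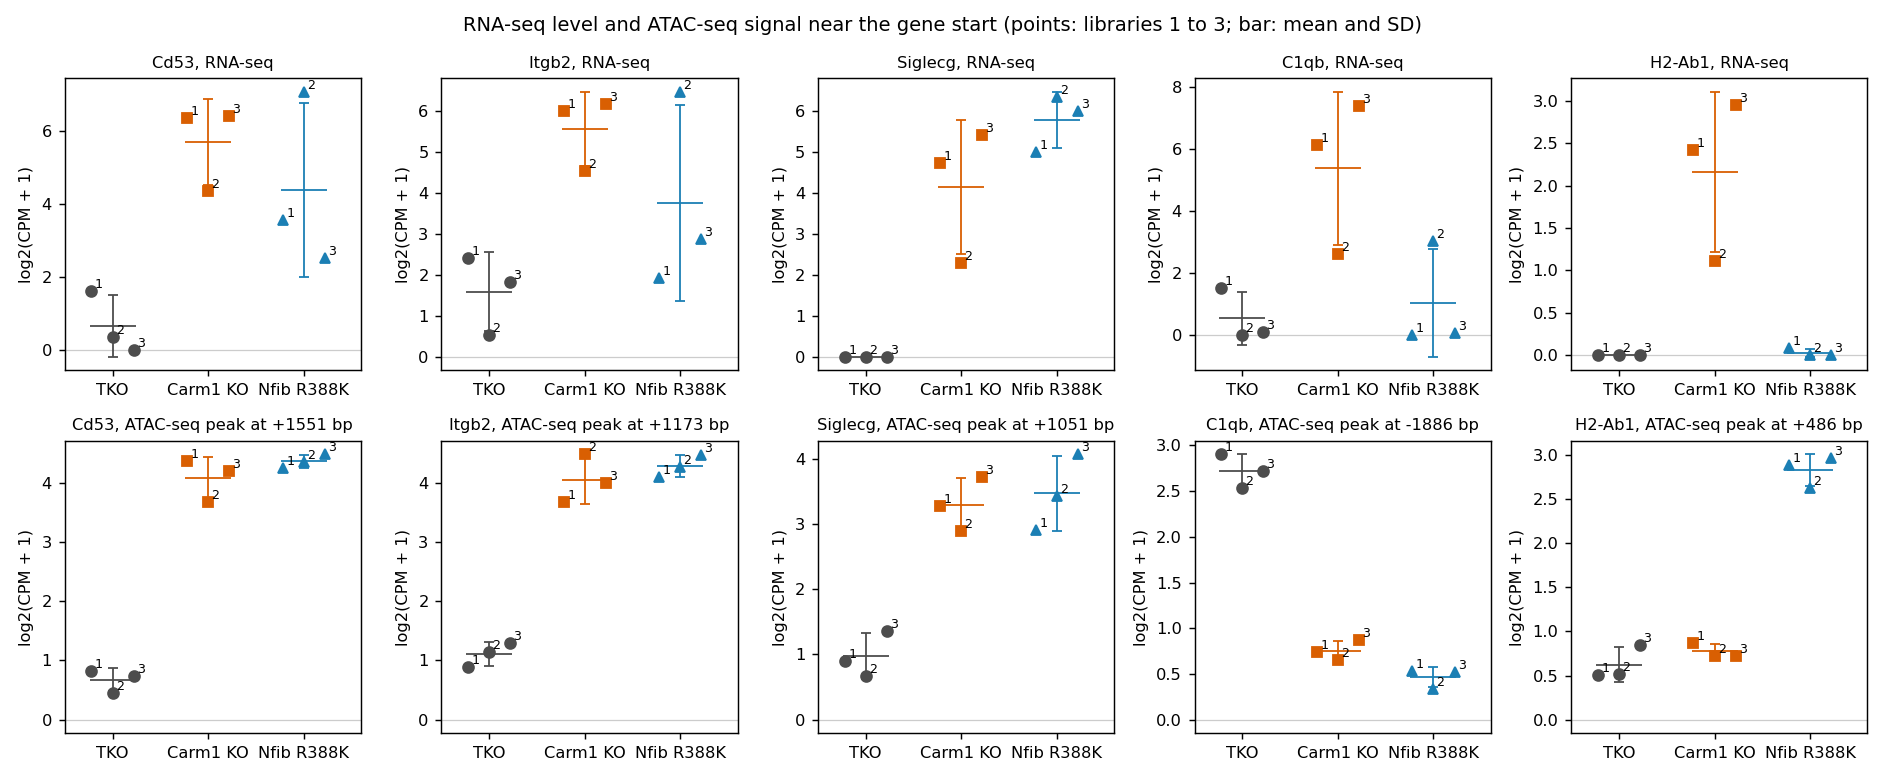
RNA-seq level (upper row) and ATAC-seq signal of a peak near the start (lower row) of 5 myeloid genes as log2(CPM + 1), with 1 point per library and a bar for the mean and SD on that scale; library numbers of the 2 assays are not known to name the same tumor. Cd53, Itgb2 and Siglecg peaks are high in all 6 mutant libraries, the C1qb peak is lower in all 6 while its RNA is higher in CARM1 knockout libraries, and the H2-Ab1 peak is high in NFIB mutant libraries alone while its RNA is highest in CARM1 knockout libraries.

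At the C1q cluster 2 of 3 peaks fell in CARM1 knockout tumors, where C1q RNA rose. The peak 1886 bp before C1qb, which also lies 4992 bp after the C1qc start (chr4:136887643-136888504), was at 6.47, 4.79 and 5.58 CPM in TKO, at 0.672, 0.576 and 0.822 CPM in CARM1 knockout libraries and at 0.448, 0.265 and 0.432 CPM in NFIB mutant libraries. The log2 fold changes were -3.02 (adjusted p = 0.000296) and -3.87 (adjusted p = 8.9e-05). The peak between C1qc and C1qa fell as well (-1.09, adjusted p = 0.058, and -2.16, adjusted p = 0.0027). The peak 383 bp after the C1qa start was not called in CARM1 knockout tumors (adjusted p = 0.33) and fell in NFIB mutant tumors (-3.02, adjusted p = 0.0169). No C1q RNA change was called in NFIB mutant tumors. Near Coro1a a peak fell from 19.9 to 25.5 CPM in TKO to at most 14.4 CPM (-1.21, adjusted p = 0.0198, and -1.85, adjusted p = 0.0025). Near Aif1 a peak fell from 37.4, 38.6 and 6.85 CPM to between 1.90 and 4.99 CPM (-3.22, adjusted p = 0.00132, and -2.85, adjusted p = 0.0021). The falls called in each mutant near C1qb, Coro1a and Aif1 held whichever library was left out, and that of the peak between C1qc and C1qa held in NFIB mutant tumors but not in CARM1 knockout tumors.

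At H2-Ab1 it was the NFIB mutant libraries that had the higher signal. Its peak 486 bp after the start (chr17:34257687-34258664) was at 0.414, 0.433 and 0.803 CPM in TKO and at 0.827, 0.653 and 0.653 CPM in CARM1 knockout libraries, but at 6.37, 5.15 and 6.83 CPM in NFIB mutant libraries, where its RNA was at most 0.0608 CPM. The NFIB mutant rise was 3.48 (adjusted p = 0.000157), the CARM1 knockout difference 0.38 (adjusted p = 0.455). Between the mutants the signal was lower in CARM1 knockout tumors (-3.10, SE 0.44), which edgeR did not call after adjustment over all peaks (adjusted p = 0.15) and DESeq2 did (adjusted p = 7.72e-13). It was called by edgeR with a minimum of 10 counts in every library (adjusted p = 0.0996) and without TKO library 3 (adjusted p = 0.0599). Of the 41 peaks, edgeR called 0 between the mutants, as 0% of all peaks, with 5 at an unadjusted p under 0.05, beside 6.13% of all peaks, namely H2-Ab1, 3 at Fcgr3 and 1 at C1qa, and DESeq2 called 2.

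Gene by gene in CARM1 knockout tumors, 13 of the 28 members whose RNA rose had a peak that rose, 3 (the C1q genes) had a peak that fell, 4 (Lcp1, Cd68, H2-Ab1 and Ncf1) had peaks without a call and 8 had no peak nearby. In NFIB mutant tumors 8 of the 12 whose RNA rose had a peak that rose, 3 had no call and 1, Fyb, had no peak. Another 9 had a peak that rose without an RNA call in NFIB mutant tumors, namely Ptprc, Fcer1g, Spi1, Cd33, Trem2, Fcgr3, Cd74, H2-Ab1 and Ctss. A gene with several peaks entered by any peak that was called, as Tlr2 and Spi1 did through a weaker peak. How many of all tested genes have such a peak is not reported here. These gene counts therefore cannot show whether members differed from other genes in this. The libraries of a genotype differed less in ATAC-seq than in RNA-seq. Over the 41 peaks the median SD of log2 CPM was 0.43, 0.39 and 0.45 for TKO, CARM1 knockout and NFIB mutant libraries, against 0.58, 0.45 and 0.47 over all peaks. RNA of the members with a peak had 1.91, 1.76 and 2.83. Among the 21 peaks called higher in both mutants together, the highest mutant library was spread over all 6, with 2 to 5 peaks each. A call on the pooled mutants favors peaks that are even over these libraries, and members without a peak could not enter. This spread therefore cannot show whether an ATAC-seq library matched the high RNA of NFIB mutant library 2 or CARM1 knockout library 3.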

How the data were processed

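RNA-seq and ATAC-seq were made from tumors of 3 genotypes, with 3 libraries per genotype and assay. For RNA-seq the authors used trim-galore for trimming and hisat2 for mapping to mm10 (GRCm38), and deposited raw gene counts from htseq-count. For ATAC-seq the authors mapped with Bowtie2, removed duplicates with Picard, called peaks with MACS2, left out putative copy-number-altered regions and deposited raw counts on 1 merged peak list (featureCounts 1.6.3 per the file headers). Columns named KO and N were read as the CARM1 knockout and the NFIB mutant, and C as TKO, from the study's group names; the labels do not spell this out. Among RNA-seq counts, 5 summary entries stayed out; reads in no gene were 3.65 to 12.2% of a library. The strand setting of the counting is not given in the sources used here.

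Counts were fitted with edgeR 4.0.16 in R 4.3.3 (TMM, filterByExpr, robust quasi-likelihood test, Benjamini-Hochberg adjustment over all features), in 1 model of all 9 libraries per assay, after tests on simulated data. SEs are the log2 fold change over the square root of F. Gene positions came from GENCODE M21, and 45229 of the 46078 gene identifiers were in it. Distances are from the gene's 5′ end in that annotation to the peak's centre. For each of the 44 genes all peaks with a base within 5000 bp entered. Members and lists were chosen with earlier results of these data known. Every member is named, and for each its strongest peak; other lists are given by counts with their most abundant gene (that of the kinases and adaptors is not reported here), and ligands of Csf1r and Csf2rb by name. Genes named beyond these rules (marker genes, Gas6, C1ra and C1s1, and further peaks of Tlr2, Spi1, Csf2rb, Fcgr3 and C1qa) were chosen after their values were seen. P-values measure the spread between 3 animals per genotype. An exact permutation test of 3 against 3 cannot go below 0.10 and was not used. Alternatives were DESeq2 1.42.0, other scalings, filters, thresholds and window, a replicate block, the compared groups alone and each library left out.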

Additional observations from a re-analysis of the deposited data

How the results depend on the processing

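No called member changed direction in the alternatives tried. The uncalled NFIB mutant difference of Coro1a, 0.59, ranged from -4.36 (without NFIB mutant library 2, and then called) to 1.17 leaving out each library. The number of members called higher in CARM1 knockout tumors (28) was 4 with at least 10 counts in every library, 17 without a filter on low counts, 12 at an adjusted p under 0.05 with a log2 fold change of at least 1, 39 by DESeq2, and 9 to 36 leaving out each library. In NFIB mutant tumors (12) it was 3 with at least 10 counts, 25 by DESeq2 and 5 to 18 leaving out each library, where 0 to 1 fell. For both mutants together (21) it was 4, 13 and 12 under the first 3 of these settings, 33 by DESeq2 and 9 to 28. Among the members only Coro1a, Itgb2, Cd68, Tlr2 and Lyz2 had at least 10 counts in every library. Counts of 3 or 4 under that filter therefore do not compare with those of the main fit. DESeq2 was run without the filter on low counts that edgeR had. The share of all genes called under each of these settings is not reported here, and the cause of the other shifts was not tested. Between the mutants (0) DESeq2 called 2 members higher in CARM1 knockout tumors. With library totals only, over all genes the median log2 fold change moved from -0.03 to -0.30 in CARM1 knockout and from -0.05 to -0.37 in NFIB mutant tumors, calls from 52.9 to 39.4% and from 48.7 to 35.8% higher, and members called higher to 25 and 12.

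With a block for the replicate number, 17, 7 and 12 members rose in CARM1 knockout, NFIB mutant and both together. The numbers are not tied to a shared animal or day, and deviations from the genotype mean correlated at -0.30 to 0.12 between same-numbered RNA-seq libraries and at -0.14 to 0.12 for ATAC-seq, with 1 of 9 libraries correlating best with its own number in RNA-seq and 0 in ATAC-seq, so the samples share only a number.

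For ATAC-seq, peaks called higher near members (21 in each comparison with TKO) stayed at 16 to 29 in the fits tried with the 5000 bp window. The 1000 bp window held fewer peaks, of which 11, 12 and 12 rose and 1, 2 and 2 fell in CARM1 knockout, NFIB mutant and both together. The share of all peaks in such a window that were called is not reported here. With library totals 2 peaks fell in CARM1 knockout tumors in place of 4, and the median of all peaks moved from 0.22 to 0.79 in both mutants (calls from 54.4 to 65.9% and from 53.6 to 64.3% higher). Between the mutants DESeq2 called 1 peak higher and 1 lower in CARM1 knockout tumors, the 10-count filter 1 lower, and leaving out each library 0 to 1 lower. A member under 0.131 to 0.203 CPM in RNA-seq could not be told from absent at this depth.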
